A study of Homo sapiens with 6 samples.

Results

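Genes from loci that genome-wide studies have associated with schizophrenia were followed in SH-SY5Y cells, other than the locus genes usually studied as targets of the microRNA miR-137. The list had 52 genes. A gene was measured by a probe set, a group of array probes for 1 transcript, annotated to that gene alone. Where a gene had several such probe sets, the one with the highest mean over all 6 arrays stood for it. By this rule 50 of the 52 genes were measured, of 18244 genes on the array, and 41 of them were bright enough to be tested, of 12620 genes tested in all. *NEK1*, a kinase of the primary cilium and of DNA repair, had no probe set annotated to it. *ITIH4*, a plasma protein of the inter-alpha-trypsin inhibitor family, shared all 6 of its probe sets with *MUSTN1*. The brightest of those 6 lay between 7.34 and 7.74 on the 6 arrays, a value that cannot be assigned to either gene.

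SH-SY5Y is an established line from a human neuroblastoma, a tumour of the sympathetic nervous system, and it is used as a neuronal model. One group of 3 arrays came from cells transfected with an anti-miR against hsa-miR-137, an oligonucleotide that binds the microRNA and blocks it, and the other 3 from cells given Anti-miR Negative Control #1. Both groups received 15 pM oligonucleotide with Lipofectamine RNAiMAX 24 hours after 100000 cells per well were seeded in DMEM/F12 medium with 10% FBS, and RNA was isolated 72 hours after transfection. The stated purpose was to look for targets of miR-137 among genes that respond to its inhibition. The arrays are numbered 1 to 3 in each group, and the labels do not say whether a number is a separate culture, so p-values measure the spread between arrays, which may be technical. The inhibition itself was not checked, since 0 probe sets are named for the gene of miR-137.

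A risk locus is a stretch of the genome whose common variants differ in frequency between people with and without schizophrenia. Such a locus often holds several genes, and the association alone does not tell which of them matters. The listed genes work in many places of a neuron: in the nucleus, in ubiquitin ligases that mark proteins for breakdown, at the synapse, outside the cell and in metabolism. The gene of miR-137 lies in such a locus as well, and the microRNA represses mRNAs that pair with its seed. The mature strand is shown because it is what the anti-miR was directed against. It lies on the minus strand at chr1:98046091-98046113 in GRCh38.p14 (RefSeq), and capitals mark the seed, bases 2 to 8.

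hsa-miR-137-3p: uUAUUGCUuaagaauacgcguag

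The array values are log2 signals that the authors normalized with RMA, so a difference of 1 is a doubling. Array medians lay between 6.40 and 6.44, and RNA integrity numbers between 9.5 and 9.8. Markers of the sympathetic neuroblast, the cell type the line stems from, gave clear signals. All 11 such genes measured were above the background level defined next, with means between 8.28 and 14.5. Among genes of other cell types the same level was exceeded by 5 of 7 mesenchymal, 3 of 6 glial, 1 of 4 blood and 2 of 5 epithelial or liver genes.

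Most of the risk locus genes gave a signal in SH-SY5Y cells. Genes of olfactory receptors, which this line is not thought to express, served as the background: 340 of them had a median of 4.44 and a 95th percentile of 6.06. Of the 50 measured risk locus genes, 39 (78%) had a mean above that percentile, as did 11836 of all 18244 genes (64.9%). Just above it was *EP300* at 6.08, and just below it was *CNKSR2* at 6.004. The share depended on the level set for background, and 29 of 50 (58%) exceeded the 99th percentile of the olfactory receptor genes. Probe sets differ in how strongly they bind, so a higher signal of one gene than of another is no measure of which transcript is more abundant, and a gene below the level may still be expressed. In bulk RNA, fewer cells with a transcript and less transcript per cell cannot be told apart.

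**Figure D1:**
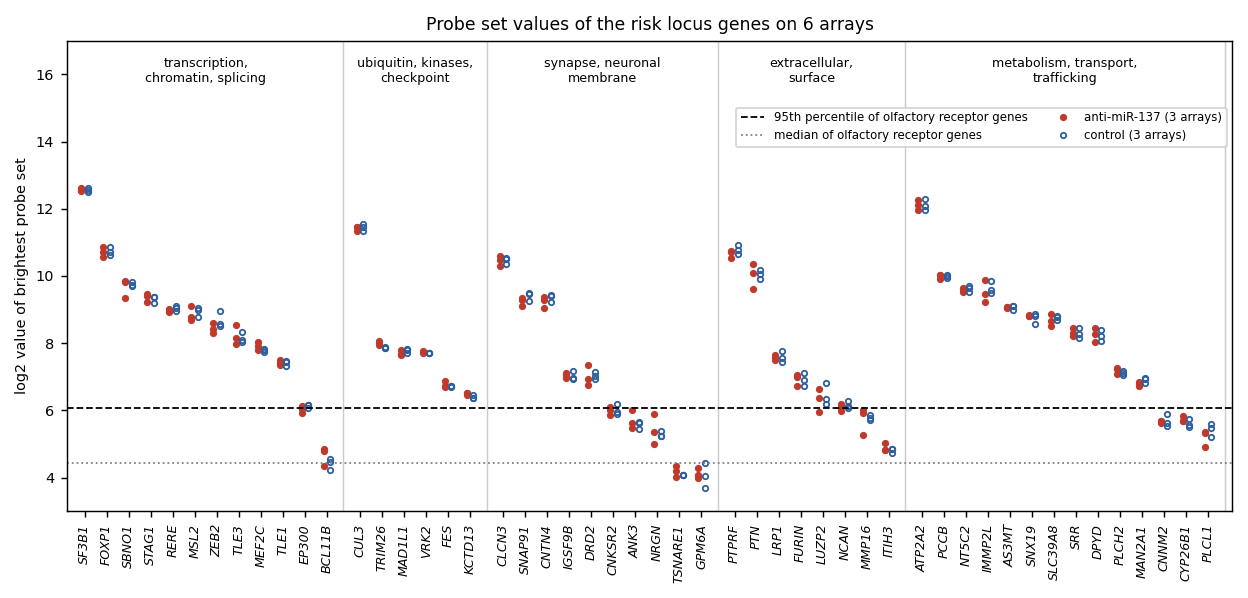
Log2 signal of the 50 measured genes on each of the 6 arrays, grouped by role, with the 95th percentile of the olfactory receptor genes (6.06) as a line. Signals run from *GPM6A* at 4.09 to *SF3B1* at 12.56, and 39 of the 50 genes lie above the line by their mean.

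By the 95th percentile level the nuclear and ubiquitin genes were above background almost throughout. In the list of transcription, chromatin and splicing genes 11 of 12 exceeded it, against 64.9% of all genes. *SF3B1*, a core protein of the splicing machinery that recognises the branch point, gave 12.56, 12.61 and 12.52 on the anti-miR-137 arrays and 12.61, 12.54 and 12.51 on the control arrays. The list's exception was *BCL11B*, a zinc finger factor of deep-layer cortical neurons and T cells, at 4.36, 4.85 and 4.80 against 4.47, 4.56 and 4.24. All 6 measured genes of the list of ubiquitin ligases, kinases and checkpoint proteins exceeded the level. They ran from *KCTD13*, a substrate adaptor of the cullin 3 ligase, with a mean of 6.45, to *CUL3*, the cullin itself, with a mean of 11.43. *EP300*, *KCTD13* and *FES* were not above the stricter 99th percentile of the olfactory receptor genes, 7.24.

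The synaptic list was split between genes with and without a signal, while 64.9% of all genes exceeded background. Of its 10 genes, 5 exceeded background: *SNAP91*, a clathrin assembly protein of synaptic vesicle recycling (9.33), *CNTN4*, an adhesion protein of axons (9.30), *CLCN3*, a chloride-proton exchanger of endosomes and vesicles (10.46), *IGSF9B*, an adhesion protein of inhibitory synapses (7.03), and *DRD2*, the D2 dopamine receptor that antipsychotic drugs block (7.03). *IGSF9B* and *DRD2* were not above the stricter 99th percentile of the olfactory receptor genes, 7.24, and the other probe set of *DRD2* had a mean of 4.77. The other 5 of the 10 genes did not exceed background. They were *NRGN*, the calmodulin-binding neurogranin of postsynaptic spines (5.35), *ANK3*, the ankyrin of the axon initial segment (5.64), *TSNARE1*, a SNARE-domain protein (4.13), *GPM6A*, a neuronal membrane glycoprotein (4.09), and *CNKSR2*, a postsynaptic scaffold (6.004). For *GPM6A* the arrays read 4.30, 4.08 and 3.98 with anti-miR-137 and 4.43, 4.06 and 3.69 with control. All 6 values are below the olfactory receptor median. *CLCN3* read 10.59, 10.46 and 10.30 against 10.53, 10.50 and 10.35.

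Genes that act outside the cell or at its surface exceeded background in 6 of 8 cases, against 64.9% of all genes. Of these 6, *NCAN*, *LUZP2* and *FURIN* were not above the stricter level of 7.24. The brightest probe set was that of *PTPRF*, a receptor tyrosine phosphatase of axon growth and synapse formation, with a mean of 10.72, and *PTN*, the secreted growth factor pleiotrophin, had 10.03. *ITIH3*, a plasma protein of the same family as *ITIH4*, read between 4.73 and 5.03 on all 6 arrays, and *MMP16*, a membrane-anchored metalloprotease, had a mean of 5.77. In the list of metabolism, transport and trafficking genes 11 of 14 exceeded background, against the same 64.9%. Of these 11, *MAN2A1* and *PLCH2* were not above 7.24. *ATP2A2*, the calcium pump of the endoplasmic reticulum, was the brightest at 12.11. The 3 below it were *CNNM2*, a magnesium transport protein (5.68), *CYP26B1*, which breaks down retinoic acid (5.67), and *PLCL1*, a phospholipase C relative without catalytic activity (5.32). *PLCL1* read 4.90, 5.32 and 5.35 with anti-miR-137 and 5.22, 5.61 and 5.49 with control.

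Most of the genes have promoters rich in CG pairs, both with and without a signal. Of the 52 genes, 45 matched a promoter in RefSeq (GRCh38.p14), and the 250 bases before the start site were searched for CG, the dinucleotide dense in CpG islands. CG reads the same on both strands and does not overlap itself. Of a gene's listed starts the one with most CG pairs was taken. At least 10 pairs were found in 41 of 45 genes (91.1%), in 54.9% of the promoters of all 27305 genes listed, 1 start each by the same rule, and in 4 of 317 olfactory receptor promoters (1.26%). The 52 genes are all protein-coding, while the 27305 were not restricted by gene type, so these shares may compare unlike kinds of genes. Among risk locus genes above background the count was 32 of 34 (94.1%), and among those not above it 8 of 9 (88.9%). A bright gene, a dim gene and a bright gene with few pairs are shown, with CG in capitals. *SF3B1* has 24 pairs at chr2:197435029-197435278 (minus strand), *NRGN* has 23 at chr11:124739692-124739941 (plus strand), and *PTN* has 8 at chr7:137343734-137343983 (minus strand).

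SF3B1: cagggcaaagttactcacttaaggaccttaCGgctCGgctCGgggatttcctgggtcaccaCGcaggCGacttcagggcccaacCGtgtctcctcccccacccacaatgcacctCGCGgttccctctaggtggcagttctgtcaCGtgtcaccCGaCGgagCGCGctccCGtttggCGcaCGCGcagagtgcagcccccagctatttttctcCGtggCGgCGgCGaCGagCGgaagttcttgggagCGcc

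NRGN: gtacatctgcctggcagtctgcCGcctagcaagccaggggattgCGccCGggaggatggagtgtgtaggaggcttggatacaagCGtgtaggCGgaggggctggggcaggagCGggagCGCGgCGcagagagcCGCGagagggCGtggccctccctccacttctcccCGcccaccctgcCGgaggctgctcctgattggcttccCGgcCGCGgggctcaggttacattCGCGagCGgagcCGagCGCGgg

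PTN: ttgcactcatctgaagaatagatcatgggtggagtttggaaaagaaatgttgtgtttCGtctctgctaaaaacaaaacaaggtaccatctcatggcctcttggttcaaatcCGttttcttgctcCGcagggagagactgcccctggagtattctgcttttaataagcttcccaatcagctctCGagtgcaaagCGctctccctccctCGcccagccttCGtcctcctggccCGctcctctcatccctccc

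Transfection with the anti-miR against miR-137 left no risk locus gene past the threshold, an adjusted p under 0.05 in limma. The count was 0 of 41, against 0% of the 12620 genes tested, and the lowest adjusted p in limma was 0.999992. Before adjustment, 1 of the 41 had a p under 0.05, *TRIM26*, against 2.65% of all genes (334). *TRIM26* kept such a p in 1 of 6 settings that left out an array, the one without anti-miR-137 replicate 1, and the count over all genes ran from 198 to 584 in these settings. The estimate was above 0 for 17 of 41 genes, against 51.9% of all genes, and below 0 for 24. The median log2 difference was -0.015, against 0.0033 over all genes tested. These signs are those of the brightest probe sets. Of the 34 tested genes with other probe sets, 28 had at least 1 of the opposite sign, counting probe sets below the filter. The precision limits what these values say: the 95% confidence interval had a median half-width of 0.21. It lay wholly within 0.3 of 0 for 26 of the 41 genes (67.9% of all genes) and within 0.5 of 0 for 38 (95.5% of all genes). The exceptions to the wider range were *ZEB2*, *LUZP2* and *IMMP2L*.

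**Figure D2:**
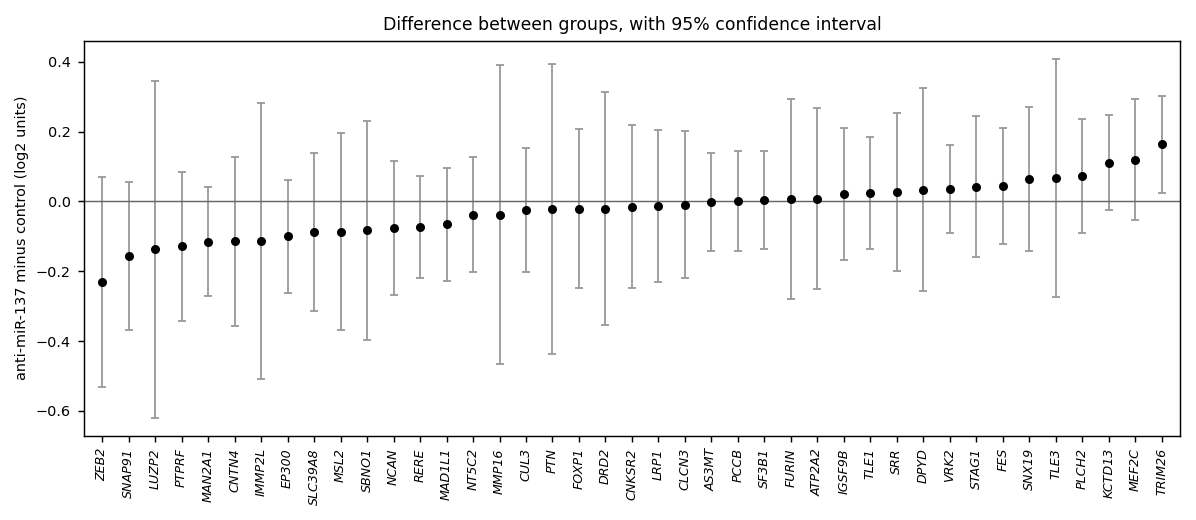
Log2 difference, anti-miR-137 minus control, of the 41 tested genes in order of the estimate, with 95% confidence intervals from limma over 3 arrays per group. The estimates run from -0.23 for *ZEB2* to 0.16 for *TRIM26*, and the interval of 1 gene, *TRIM26*, leaves out 0 before adjustment.

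*TRIM26*, a ubiquitin ligase encoded in the major histocompatibility region, had the highest estimate. Its signals were 7.96, 8.08 and 8.05 with anti-miR-137 and 7.86, 7.88 and 7.85 with control, so the groups did not overlap. The difference was 0.16 (SE 0.059, 95% confidence interval 0.024 to 0.30), with a limma adjusted p of 1.00. The suffix of this probe set marks possible cross-hybridisation. The other 3 probe sets of *TRIM26* differed by 0.01 to 0.15, all higher with anti-miR-137. Non-overlapping groups were found for 2 of the 41 genes, against 7.36% of all genes. Both were higher with anti-miR-137, against 4.19% of all genes that were higher and 3.17% that were lower without overlap. The second was *KCTD13*, with 6.51, 6.53 and 6.47 against 6.45, 6.37 and 6.37 and a difference of 0.11 (95% confidence interval -0.025 to 0.25). It has no other probe set here. In the whole list of ubiquitin ligases, kinases and checkpoint proteins 4 of 6 estimates were above 0, with a median of 0.039. *CUL3*, which binds *KCTD13* protein, had a difference of -0.024 (95% confidence interval -0.20 to 0.15).

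In the transcription list 5 estimates were above 0 and 6 below, with a median of -0.021. *ZEB2*, a transcriptional repressor that acts in neural crest and interneuron development, had the lowest estimate of all 41 genes. It read 8.44, 8.31 and 8.60 with anti-miR-137 and 8.51, 8.58 and 8.95 with control. Within each replicate number the anti-miR-137 array was the lower, but the groups overlapped, and the difference of -0.23 had a 95% confidence interval of -0.53 to 0.069. It was -0.098 without control replicate 3, and -0.04 on the other probe set. *MEF2C*, an activity-regulated factor of neuronal and muscle genes, read 8.03, 7.80 and 7.91 against 7.83, 7.75 and 7.81, a difference of 0.12 (95% confidence interval -0.055 to 0.29) that was 0.062 without anti-miR-137 replicate 1. Its other 3 probe sets differed by -0.14 to 0.05. The estimate for *SF3B1* was close to 0, at 0.0046 (95% confidence interval -0.14 to 0.15).

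In the synaptic list 1 of 6 tested genes had an estimate above 0, and the median was -0.018. *SNAP91* read 9.34, 9.11 and 9.29 with anti-miR-137 and 9.47, 9.27 and 9.48 with control. The anti-miR-137 array was the lower in each replicate number, the groups overlapped, and the difference was -0.16 (95% confidence interval -0.37 to 0.055), or -0.088 without anti-miR-137 replicate 2. Its probe sets disagreed: the other 3 differed by -0.12 to 0.13. *CNTN4* read 9.39, 9.04 and 9.29 against 9.41, 9.23 and 9.43, a difference of -0.11 (95% confidence interval -0.36 to 0.13), and its other probe set gave 0.08. Without anti-miR-137 replicate 2 the difference was -0.017. The difference for *DRD2* was -0.021 (95% confidence interval -0.35 to 0.31). The spread of *DRD2* was wide, with an SD of 0.29 over the 3 anti-miR-137 arrays and 0.10 over the 3 control arrays.

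In the extracellular list 1 of 7 tested genes had an estimate above 0, with a median of -0.038. *PTPRF* read 10.70, 10.74 and 10.53 with anti-miR-137 and 10.66, 10.93 and 10.77 with control. The groups overlapped, the difference was -0.13 (95% confidence interval -0.34 to 0.086), and of 4 other probe sets 3 were lower as well. It was -0.057 without control replicate 2. *NCAN*, the chondroitin sulphate proteoglycan neurocan, read 6.18, 6.10 and 5.98 against 6.29, 6.07 and 6.13, a difference of -0.076 (95% confidence interval -0.27 to 0.12), or -0.014 without control replicate 1. The other probe set of *NCAN*, below the filter, gave 0.13. In the metabolism list 6 of 11 estimates were above 0, with a median of 0.0023. *MAN2A1*, a mannosidase of N-glycan processing in the Golgi, read 6.72, 6.85 and 6.80 against 6.82, 6.92 and 6.96, a difference of -0.12 (95% confidence interval -0.27 to 0.042). *PLCH2*, a phospholipase C, read 7.24, 7.25 and 7.09 against 7.18, 7.11 and 7.06, a difference of 0.072 (95% confidence interval -0.091 to 0.23).

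Within the replicate numbers the directions were mixed. The anti-miR-137 array was the higher in all 3 numbers for 6 genes (*MEF2C*, *STAG1*, *TRIM26*, *KCTD13*, *VRK2* and *PLCH2*), against 15% of all genes. It was the lower in all 3 for 6 others (*ZEB2*, *RERE*, *EP300*, *SNAP91*, *CNTN4* and *MAN2A1*), against 13.2%. These directions are those of the brightest probe sets. A dimmer probe set of *RERE*, also past the filter, went the other way. It was higher with anti-miR-137 in all 3 numbers, by a log2 difference of 0.26. The 9 measured genes too dim for the main test were fitted without the brightness filter. Their differences ran from -0.25 for *PLCL1* to 0.25 for *BCL11B*, and none had an adjusted p under 0.05 in limma. *NRGN* read 5.00, 5.36 and 5.91 with anti-miR-137 and 5.38, 5.23 and 5.23 with control. The array that stands out is anti-miR-137 replicate 3, and all 6 values are below the 95th percentile of the olfactory receptor genes.

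Several listed genes are neighbours in 1 locus. On chromosome 10, *NT5C2*, a nucleotidase of purine metabolism, and *AS3MT*, the arsenite methyltransferase, gave signals of 9.61 and 9.07, while *CNNM2* did not exceed background, with 5.63, 5.70 and 5.67 against 5.90, 5.64 and 5.53. *NT5C2* read 9.52, 9.60 and 9.64 with anti-miR-137 and 9.53, 9.71 and 9.63 with control, and *AS3MT* read 9.09, 9.04 and 9.07 against 9.12, 9.09 and 8.9996. Their differences were -0.038 (95% confidence interval -0.20 to 0.13) and -0.0014 (95% confidence interval -0.14 to 0.14). *AS3MT* is overlapped by a readthrough transcript in RefSeq, so its signal may include that transcript. On chromosome 15, *FURIN*, a proprotein convertase, read 6.99, 7.06 and 6.72 against 7.12, 6.90 and 6.73, and *FES*, a tyrosine kinase, read 6.89, 6.68 and 6.72 against 6.73, 6.69 and 6.74. Neither passed the test, with differences of 0.0062 (95% confidence interval -0.28 to 0.29) and 0.044 (95% confidence interval -0.12 to 0.21). On chromosome 3, *STAG1*, a cohesin subunit, *PCCB*, a subunit of propionyl-CoA carboxylase, and *MSL2*, a ubiquitin ligase of a histone acetyltransferase complex, had means of 9.34, 9.99 and 8.90. *STAG1* read 9.22, 9.41 and 9.46 against 9.21, 9.37 and 9.39. *PCCB* read 10.04, 9.91 and 10.02 against 10.02, 9.95 and 9.99, and *MSL2* lay between 8.69 and 9.10 on all arrays. The groups overlapped for all 3, with differences of 0.041, 0.0023 and -0.086. The *ITIH3* and *ITIH4* pair on the same chromosome gave no usable signal.

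Between the replicate numbers 1 risk locus gene passed the test, *LUZP2*. The labels do not say what a number stands for. With the treatment held in the model, 1 of the 41 genes had an adjusted p under 0.05 among the 3 numbers (limma F test), against 2.54% of all genes (321). At an unadjusted p under 0.05 there were 17 of 41, against 23.5% of all genes. That count was 8 without either array of replicate 3. For 28 of 41 genes both arrays of some number lay outside the range of the other 4 arrays, against 55.7% of all genes. The highest mean was in replicate 1 for 21 of the 41 genes (38.6% of all genes), in replicate 2 for 8 (25%) and in replicate 3 for 12 (36.4%). The lowest mean was in replicate 1 for 10 (35.6% of all genes), in replicate 2 for 17 (23%) and in replicate 3 for 14 (41.3%).

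**Figure D3:**
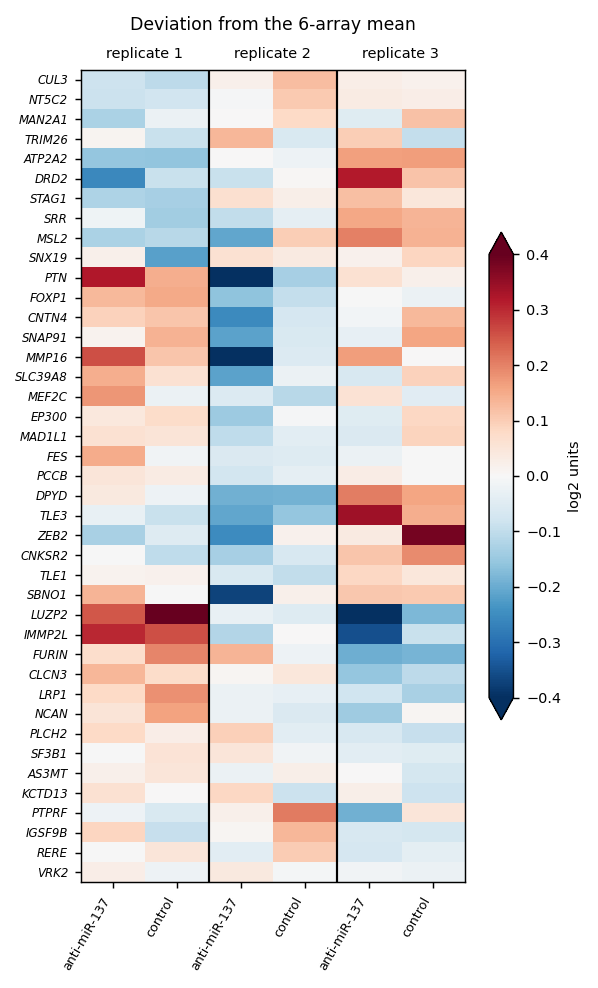
Deviation of each of the 41 tested genes from its mean over the 6 arrays (log2 units, colour), with the 2 arrays of each replicate number side by side. *LUZP2* and *IMMP2L* are high in both replicate 1 arrays and low in both replicate 3 arrays, and *ATP2A2* shows the reverse.

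*LUZP2*, a leucine zipper protein of the nervous system whose function is little known, was the gene called. It read 6.63, 6.36 and 5.96 in replicates 1, 2 and 3 with anti-miR-137, and 6.82, 6.34 and 6.21 in the same order with control. These values are near background. The mean of 6.39 exceeded the level of 6.06 but not the 99th percentile of the olfactory receptor genes, 7.24. The anti-miR-137 array of replicate 3 was below 6.06. Replicate 3 was lower than replicate 1 by a log2 difference of -0.64 (SE 0.082), in both treatments, with an adjusted p of 0.043 in the limma F test. The call was lost when either array of replicate 1 or 3 was left out. The adjusted p was then 0.15 (anti-miR-137) and 0.18 (control) without a replicate 1 array, and 0.34 and 0.35 without a replicate 3 array, settings in which 0 of all genes were called. The difference stayed between -0.72 and -0.56. Without either array of replicate 2 the gene was still called, at an adjusted p of 0.033 and 0.030. The call was also lost without the brightness filter, at an adjusted p of 0.12. The other 2 probe sets of *LUZP2* were below the filter and differed by -0.11 and -0.05.

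Replicate 3 was set against replicate 1 gene by gene in the same model. At an adjusted p under 0.05, 3 of 41 genes differed, against 8.28% of all genes: *LUZP2* (adjusted p = 0.018), *IMMP2L* (0.030) and *ATP2A2* (0.033). *IMMP2L*, a peptidase of the mitochondrial inner membrane, read 9.89, 9.47 and 9.24 with anti-miR-137 and 9.85, 9.59 and 9.50 with control. Replicate 3 was lower than replicate 1 in both treatments, by a log2 difference of -0.50, which ran from -0.62 to -0.38 when single arrays were left out. The other probe set of *IMMP2L*, below the filter, gave 0.03. *ATP2A2* read 11.96, 12.11 and 12.28 against 11.95, 12.09 and 12.28, a difference of 0.32 in the opposite direction. That difference rests on 1 probe set of *ATP2A2*, since the 4 others past the filter gave -0.06 to 0.05. By the brightest probe sets, 7 of 7 tested genes of the extracellular list were lower in replicate 3 than in replicate 1. Their median was -0.19, against a median of -0.011 and 52.9% lower among all genes. Other probe sets, some of them below the filter, did not all share this. They gave -0.03 to 0.23 for *PTPRF*, 0.22 for *NCAN*, -0.06 to 0.29 for *MMP16* and -0.25 to 0.005 for *LRP1*. Those of *PTN* (-0.14) and *LUZP2* were lower too, and *FURIN* had no further probe set. The medians of the other role lists were 0.040 (transcription), -0.031 (ubiquitin), -0.028 (synapse) and 0.11 (metabolism). Over the 7 mesenchymal markers the mean deviation was 0.13, -0.0078 and -0.078 in replicates 1, 2 and 3 with anti-miR-137 and 0.054, -0.083 and -0.012 with control. Replicate 3 minus replicate 1 was -0.63 for *DCN*, -0.22 for *COL3A1*, -0.20 for *COL1A1*, 0.029 for *TWIST1* and 0.29 for *LUM*, none of them called. Their part in the extracellular list's values was not tested. Of the 41 genes together, 25 were lower, and 7 differed by more than 0.3 in either direction, against 12.2% of all genes.

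**Figure D4:**
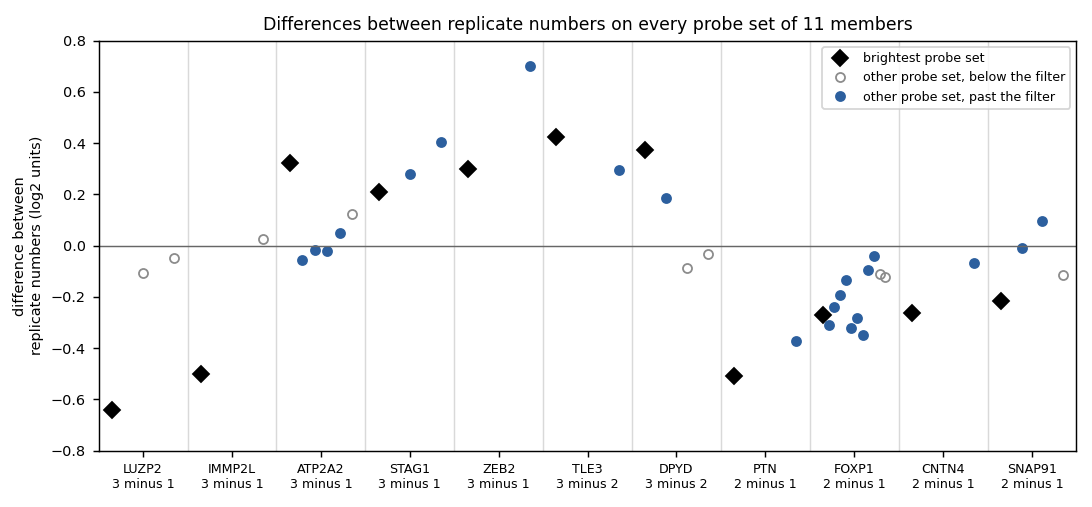
Differences between replicate numbers (log2 units, vertical axis) on every probe set of 11 genes, each for the pair of numbers named under it, with the brightest probe set as a diamond and the others as circles. All 12 probe sets of *FOXP1* are below 0, while the value of 0.32 for *ATP2A2* is not shared by its other probe sets.

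Comparisons with replicate 2 gave 0 calls among the 41 genes, against 0.0317% of all genes for replicate 2 and 1 and 0.00792% for replicate 3 and 2. Between replicates 2 and 1, 27 of the 41 genes were lower in replicate 2 (50% of all genes) and 4 differed by more than 0.3 (3.54%). Between replicates 3 and 2, 18 of the 41 were lower in replicate 3 (52%). The following values describe genes that did not pass. *PTN* read 10.35, 9.62 and 10.09 with anti-miR-137 and 10.18, 9.90 and 10.05 with control, a difference between replicates 2 and 1 of -0.51, with -0.37 on its other probe set. Anti-miR-137 replicate 2 was the lowest array for *PTN* (9.62), and for *SBNO1*, a nuclear helicase-like protein, the same array read 9.34 while the other 5 read 9.71 to 9.85. *FOXP1*, a forkhead repressor linked to speech and cognition, differed by -0.27 between replicates 2 and 1, and all 11 of its other probe sets were negative too. *DPYD*, the enzyme that starts pyrimidine breakdown, read 8.28, 8.05 and 8.45 against 8.22, 8.05 and 8.40, so replicate 2 was low in both treatments. *TLE3*, a Groucho family corepressor, read 8.16, 7.98 and 8.53 against 8.10, 8.03 and 8.33. Replicate 3 exceeded replicate 2 by 0.37 for *DPYD* and by 0.42 for *TLE3*, with limma F test adjusted p of 0.064 and 0.076.

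None of the genes described next was called. *ZEB2* was higher in replicate 3 than in replicate 1 by 0.30 and than in replicate 2 by 0.33, and its second, dimmer probe set gave 0.70 and 0.12 for the same comparisons. For replicates 2 and 1 its probe sets disagreed, with -0.026 on the brighter and 0.59 on the dimmer. *CNTN4* and *SNAP91* were lower in replicate 2 than in replicate 1, by differences of -0.26 and -0.22. For *CUL3* and *MAD1L1*, a protein of the spindle assembly checkpoint, the differences between replicates 2 and 1 were 0.17 and -0.13. *CUL3* read 11.35, 11.46 and 11.46 with anti-miR-137 and 11.33, 11.56 and 11.45 with control, and *MAD1L1* read 7.80, 7.64 and 7.69 against 7.80, 7.70 and 7.83. *STAG1* was higher in replicate 3 than in replicate 1 by 0.21, and its other 2 probe sets gave 0.28 and 0.41. *DRD2* was higher in replicate 3 than in replicate 1 in both treatments, with 6.77, 6.94 and 7.34 against 6.94, 7.03 and 7.14, a difference of 0.39 that was not called (adjusted p = 0.15 in the limma F test).

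The proteins with which the listed genes work were read from 10 lists with 68 genes, 63 of them tested. None differed between anti-miR-137 and control at an adjusted p under 0.05, 32 estimates were above 0 and 31 below, and the median was 0.013. The 8 cohesin genes around *STAG1* had 2 estimates above 0 and 6 below, with the smallest p for *RAD21* (-0.099), the kleisin that closes the ring. Among the 6 SF3b partners of *SF3B1* the smallest p belonged to *SF3B4* (0.11), among the 3 MSL genes to *KAT8* (0.068), the acetyltransferase, and among the 7 cullin 3 partners to *KLHL7* (-0.10), an adaptor. *HDAC1* (-0.083) had it among the Groucho partners, *CREBBP* (-0.10), the paralog of *EP300*, among the acetyltransferases, and *MAD2L1* (-0.087) in the checkpoint list. The smallest p of the endocytic, proteoglycan and propionate lists belonged to *AP2B1* (-0.15), *SDC3* (-0.15), a receptor of pleiotrophin, and *MCEE* (0.10).

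Among the replicate numbers 2 of the 63 tested partner genes were called, a share close to the 2.54% of all genes. Both are in the spindle checkpoint list around *MAD1L1*. *CDC20*, the activator of the anaphase-promoting complex, was higher in replicate 3 than in replicate 1 by 0.54 (limma F test, adjusted p = 0.042), and *TTK*, the kinase that starts checkpoint signalling, by 0.50 (adjusted p = 0.044). The mean deviation of the 6 checkpoint genes was -0.14, -0.0022 and 0.20 in replicates 1, 2 and 3 with anti-miR-137 and -0.20, -0.050 and 0.19 with control. Within the list *BUB3* differed by 0.011 between replicates 3 and 1, and *BUB1*, *BUB1B* and *MAD2L1* by 0.40, 0.42 and 0.32 without being called. The part of these mitotic genes in the differences of *LUZP2*, *IMMP2L* and *ATP2A2* was not tested. In the other lists the genes with the smallest p for the numbers were not called. Replicate 3 minus replicate 1 was 0.42 for the cohesin gene *SMC1A*, 0.25 for *MSL3*, 0.27 for *CAND1*, 0.095 for *CREB1*, 0.15 for *CLTC* and 0.30 for *SHMT1*. It was -0.16 for *SF3B6*, -0.13 for *TLE2* and -0.62 for *VCAN*, the proteoglycan versican. The p is for any difference among the 3 numbers, and for some genes another pair of numbers differed more. Replicate 3 minus replicate 2 was -0.29 for *TLE2*, 0.14 for *CREB1* and 0.33 for *SHMT1*. Replicate 2 minus replicate 1 was -0.20 for *SF3B6* and -0.65 for *VCAN*.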

How the data were processed

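The data are 6 one-colour arrays of total RNA from SH-SY5Y cells, 3 per treatment. The deposited values are log2 signals per probe set, made by the authors with RMA in R 3.0.1, per the submitters' processing notes. RMA corrects background, makes the arrays' distributions alike and summarises probes on a log2 scale, so values are relative and a common shift of every transcript would not show. The array's genome build is not given in the sources used here, and scanner files were not used here. The 3 arrays per group limit the precision.

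Of 49495 probe sets, 202 controls were left out (102 of the manufacturer's and 100 ERCC spike-ins). Of the rest, 45278 had 1 gene symbol in the platform annotation, 1333 several and 2682 none. For 45208 the gene was found in the RefSeq table of GRCh38.p14, which changed 0 symbols. Probe sets with a mean over 6 arrays under the 40th percentile, 5.70, were dropped, which left 27458 probe sets with 1 symbol and 12620 genes, each by its brightest probe set. Of the 50 measured genes, 39 have several probe sets and 19 are represented by one whose suffix marks possible cross-hybridisation.

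limma 3.58.1 in R 4.3.3 was fitted on all genes (lmFit, eBayes, two-sided), with group alone for the treatment and with group and number for the numbers, and Benjamini-Hochberg adjustment over all genes. The root mean square difference between 2 arrays was 0.13 to 0.24, so none was a duplicate. The script was tested on simulated data. Arrays with the same number deviated together with correlations of 0.55 for number 1, 0.074 for number 2 and 0.65 for number 3. The labels do not say that they are pairs, and the main treatment test did not use them as such. Deviations shared within a number therefore stayed in the error of that test. The number as a block was an alternative.

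The genes and lists were chosen with earlier results of these data known. Named were, per role list, the 2 genes with the smallest p for treatment and for number, the brightest, the dimmest and neighbours in a locus, and, per partner list, the gene with the smallest p for each comparison. These role list genes are given with all array values, except *ITIH3* and *MSL2* (ranges), and partner genes by their difference. *SBNO1*, *FOXP1*, *DRD2* and *NRGN* were added after their values were seen. The alternatives were other filters, other probe set rules, quantile or median normalization, array weights, a variance prior with trend, the number as a block, RNA integrity as a covariate, no group term, other thresholds and leaving out each array.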

Additional observations from a re-analysis of the deposited data

How the results depend on the processing

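The treatment comparison gave 0 called genes among the 41 and over all genes in all 17 alternatives. The labels do not say that arrays with the same number are pairs. A replicate block still gave 0 calls, with 816 genes at an unadjusted p under 0.05 against 334 without it. Of the 41 genes, 3 had such a p with the block (*SNAP91*, *TRIM26* and *ZEB2*), against 1 in the main setting. Over the alternatives this count ran from 0 to 4. The confidence intervals given for single genes are those without the block. The estimate changed sign for *MEF2C* when probe sets were averaged (-0.0050), and for *SNAP91* without the suffixed probe sets (0.13). *TRIM26* lost its unadjusted p under 0.05 when probe sets were averaged or the suffixed ones left out.

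The replicate number comparison depended on the setting. Of the 41 genes, 1 was called in the main setting, 0 without the brightness filter, 5 with a filter at the 60th percentile, 10 with a variance prior with trend, 2 without the group term, 0 at an adjusted p under 0.01, and 0 to 3 when single arrays were left out. Over all genes, where 321 were called, these counts were 2, 1097, 1796, 527, 2 and 0 to 541, and 637 with array weights. *LUZP2* was not tested at the 60th percentile. Without the suffixed probe sets, *ATP2A2* gave -0.018 for replicates 3 and 1, and *SNAP91* gave 0.097 for replicates 2 and 1. The cause was not tested. The share of genes above background was 58% with the 99th percentile of the olfactory receptor genes.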
